A study of Rattus norvegicus with 2 samples.

Results

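Guanylate cyclases make the second messenger cyclic GMP (cGMP) from GTP, and the genes described here are the cyclases of the rat retina, together with the calcium-binding proteins that activate the photoreceptor forms. Members were found by their gene symbols in the deposited expression table, and all 10 were present among its 32662 genes. They are the retinal membrane cyclases *Gucy2f* and *Gucy2d*, their activators *Guca1a* and *Guca1b*, the soluble cyclase subunits *Gucy1a2*, *Gucy1a3* and *Gucy1b3*, the natriuretic-peptide cyclases *Npr1* and *Npr2*, and *Gucy2c*, the cyclase known as the gut receptor for guanylin peptides. RNA-seq was performed on retina from female Long-Evans rats aged 2 months, with 1 library per condition. CTRL came from an animal given a sham procedure, and IR12 from a retina with ischemia-reperfusion injury taken 12 hours after reperfusion. Total RNA was depleted of rRNA and sequenced with a stranded kit, and the study used both libraries to detect circular RNAs (circRNAs). Expression was deposited as FPKM, a level scaled to transcript length and mapped reads.

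In rods and cones, light closes cGMP-gated channels by way of a phosphodiesterase that breaks down cGMP, calcium in the outer segment drops, and the activator proteins then stimulate the membrane cyclases, which restores the dark state. The soluble cyclase is a heterodimer of an alpha and a beta subunit that responds to nitric oxide, and in the retina it is best known from inner neurons. The natriuretic-peptide cyclases are cell surface receptors whose intracellular part makes cGMP.

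Without replicates, no difference between the libraries could be tested, and the values below describe these 2 libraries. Changes are log2 ratios of FPKM + 1, IR12 over CTRL, on which changes of low genes appear smaller than they are. The direction of most of these genes turns on 1 of the scales tried, the TPM scale described next. The FPKM column of CTRL adds up to 1402321 and that of IR12 to 895200. Small non-coding RNAs account for 67.9% of the former and 46.2% of the latter. Bringing both columns to the same sum (TPM scale) adds 0.65 to every log2 ratio, apart from the effect of the pseudocount. The median log2 ratio over the 13599 genes that reached an FPKM of 1 in either library, called the genes tested below, was 0.02 as deposited and 0.59 on the TPM scale. On the deposited scale 892 of these genes (6.56%) were 2-fold or more above CTRL and 832 (6.12%) lay 2-fold or more below CTRL, against 2817 (20.7%) and 436 (3.21%) on the TPM scale. The ratio of 2 genes inside 1 library carries no such factor, and these ratios are given beside the levels.

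The retinal cyclase *Gucy2f* had a lower log2 ratio than the other photoreceptor members on each scale used, and the activator *Guca1b* had a higher one. The 3 soluble subunits kept nearly the same proportions to each other. Of the 10 members, 8 reached an FPKM of 1 in either library, and 7 of these 8 were lower in IR12 as deposited, while on the TPM scale 1 of the 8 was lower. Over all 13599 genes, 48.2% were lower in IR12 as deposited and 15.7% on the TPM scale. With the same sum over genes other than small RNAs, 7 of the 8 were again lower, against 55.3% of all genes tested, whose median log2 ratio was then -0.07. None of the 10 members was 2-fold different as deposited, and *Guca1b* passed 2-fold higher on the TPM scale. *Npr1* and *Gucy2c* were under the minimum in both libraries.

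**Figure D1:**
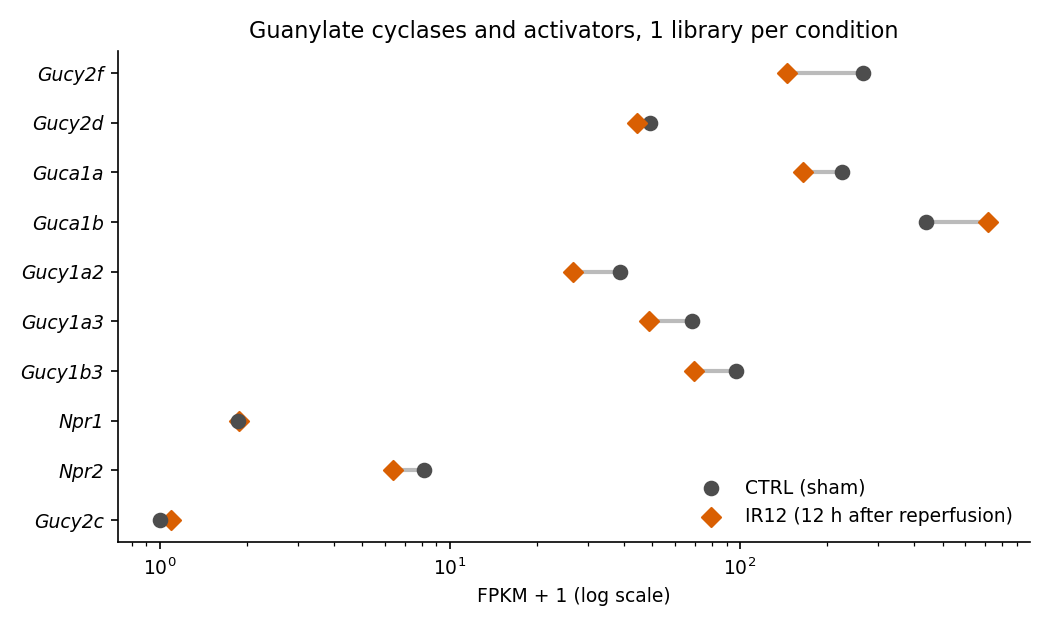
FPKM + 1 of the 10 genes on a log axis, with CTRL as grey circles and IR12 as orange diamonds, 1 library each and therefore without error bars. *Guca1b* had 437 in CTRL and 718 in IR12, while *Gucy2f* had 266 and 145; on the TPM scale the other members with a lower deposited value in IR12 turn higher, and *Gucy2f* stays lower.

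The promoters of the photoreceptor members are shown first, since these genes act in photoreceptors, that is rods and cones, and yet moved apart. The sequences are the 250 bases before the RefSeq start on the GRCr8 build, on the strand of the gene: *Gucy2f* at chrX:110605018-110605267 (minus strand), *Gucy2d* at chr10:54472899-54473148 (minus strand), *Guca1a* at chr9:21086392-21086641 (plus strand) and *Guca1b* at chr9:21105108-21105357 (minus strand). Capitals mark TAATC or its other-strand form GATTA, the core read by Crx-type homeodomain factors of photoreceptors, and in *Guca1b* they mark CCAAT.
Gucy2f: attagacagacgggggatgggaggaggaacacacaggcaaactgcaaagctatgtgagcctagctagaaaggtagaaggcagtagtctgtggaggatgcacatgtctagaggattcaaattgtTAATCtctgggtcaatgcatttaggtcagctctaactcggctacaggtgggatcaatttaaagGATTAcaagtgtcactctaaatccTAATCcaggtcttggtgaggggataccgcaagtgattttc
Gucy2d: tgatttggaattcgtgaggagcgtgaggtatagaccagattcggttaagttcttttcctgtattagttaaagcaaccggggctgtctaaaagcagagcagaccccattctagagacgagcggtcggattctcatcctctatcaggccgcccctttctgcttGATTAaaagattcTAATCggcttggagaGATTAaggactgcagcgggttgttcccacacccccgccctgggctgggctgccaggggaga
Guca1a: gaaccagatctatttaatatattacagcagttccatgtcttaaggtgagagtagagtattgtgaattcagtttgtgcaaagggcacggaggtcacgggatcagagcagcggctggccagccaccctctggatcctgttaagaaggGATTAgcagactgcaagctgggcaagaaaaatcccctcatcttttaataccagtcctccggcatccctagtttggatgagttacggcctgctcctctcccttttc
Guca1b: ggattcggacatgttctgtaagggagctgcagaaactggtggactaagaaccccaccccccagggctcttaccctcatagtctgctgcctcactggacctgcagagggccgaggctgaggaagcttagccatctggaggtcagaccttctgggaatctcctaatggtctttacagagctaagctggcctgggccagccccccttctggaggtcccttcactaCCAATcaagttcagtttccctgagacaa
*Gucy2f* and *Gucy2d* each held 3 matches to TAATC, *Guca1a* held 1 and *Guca1b* 0, against 20.5% of all 33469 promoters of the same length with at least 1 match on either strand. The longer TAATCC, which contains TAATC, was found 2 times in *Gucy2f* and 1 time in *Guca1a*, and in 6.34% of all promoters. In *Gucy2f* these TAATCC matches began 65 and 40 bases before the start. *Rd3*, a gene of a cyclase regulator described below, was higher in IR12 like *Guca1b*. Its promoter window at chr13:106085013-106085262 held 5 matches to TAATC, all within TAATCC, and that at chr13:106060407-106060656 held 0. The matches therefore did not follow the direction of these genes. CCAAT, or ATTGG on the other strand, occurred 1 time in *Guca1b* and in 34% of all promoters. A match describes the letters in the window and does not show that a factor binds there.

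*Gucy2f* encodes a membrane cyclase of photoreceptor outer segments and lies at chrX:113372240-113474164 on rn6, the build of the deposited loci. Its FPKM was 266 in CTRL and 145 in IR12. The log2 ratio was -0.87 as deposited and -0.23 on the TPM scale, so that *Gucy2f* was the member lower in IR12 on both scales. Of the genes tested, 7.50% had a lower log2 ratio as deposited and 9.56% on the TPM scale. Its level in CTRL was above that of 97.8% of the genes that reached an FPKM of 1 there. The study examined a circRNA from *Gucy2f*, and gene-level FPKM does not separate circular from linear transcripts. In bulk retina, fewer cells of a type and less RNA per cell cannot be told apart.

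The genes nearest to *Gucy2f* in level over the 2 libraries were *Calb2*, *Wdr17*, *Optn*, *Kcnj14* and one of the genes listed as *SNORA62*, at Euclidean distances of 0.06 to 0.18 in log2(FPKM + 1). *Calb2*, a calcium-binding protein of inner retinal neurons, was the closest, at 275 FPKM in CTRL and 148 in IR12. With 2 values per gene, such likeness means a similar level and a similar ratio.

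*Gucy2d*, the other retinal membrane cyclase, lies at chr10:55835695-55851235 on rn6. RefSeq lists RETGC-1 among its synonyms, and this photoreceptor form is separate from the olfactory cyclase listed as *Gucy2e*, which had an FPKM of 0 in both libraries. The FPKM of *Gucy2d* was 48.2 in CTRL and 43.3 in IR12. Its log2 ratio was -0.15 as deposited and turned to 0.48 on the TPM scale. *Gucy2f* exceeded *Gucy2d* 5.52 times in CTRL and 3.35 times in IR12, a change of -0.72 in the log2 of the ratio. *Gucy2f* thus made up 84.7% of the summed FPKM of the retinal cyclases in CTRL and 77.0% in IR12.

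The activators are neighbours on chromosome 9 and moved in opposite directions as deposited, although on the TPM scale both were higher in IR12. *Guca1a* lies at chr9:15609804-15620029 and *Guca1b* at chr9:15621083-15629017 on rn6, with 1053 bases between the listed loci, and RefSeq places them on opposite strands. The FPKM of *Guca1a* was 225 in CTRL and 165 in IR12. Its log2 ratio was -0.44 as deposited and 0.20 on the TPM scale. The FPKM of *Guca1b* was 437 in CTRL and 718 in IR12. Its log2 ratio was 0.72 as deposited and 1.36 on the TPM scale, and 88.7% of all genes tested had a lower log2 ratio as deposited. *Guca1b* was therefore already the more abundant activator in CTRL, at 1.94 times *Guca1a*, and stood at 4.36 times *Guca1a* in IR12. This was a 2.24-fold change in the ratio inside the libraries. Whether counting used strand is not given in the sources used here, and how reads near these neighbouring ends were assigned was not tested.

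Summed over both genes, the activators had 2.11 times the FPKM of the retinal membrane cyclases in CTRL and 4.69 times in IR12. *Rd3*, which encodes a protein that binds these cyclases, blocks their activity and is needed for their transport to the outer segment, showed the same direction as *Guca1b*. The FPKM of *Rd3* was 44.9 in CTRL and 71.9 in IR12. Its log2 ratio was 0.67 as deposited and 1.30 on the TPM scale. Relative to *Gucy2f*, *Rd3* was at 0.169 in CTRL and 0.497 in IR12, a 2.94-fold change. *Rd3l*, a related gene, had 42.9 in CTRL and 39.2 in IR12, and it shares a listed locus with *Tdrd9*, so that its own value is uncertain.

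**Figure D2:**
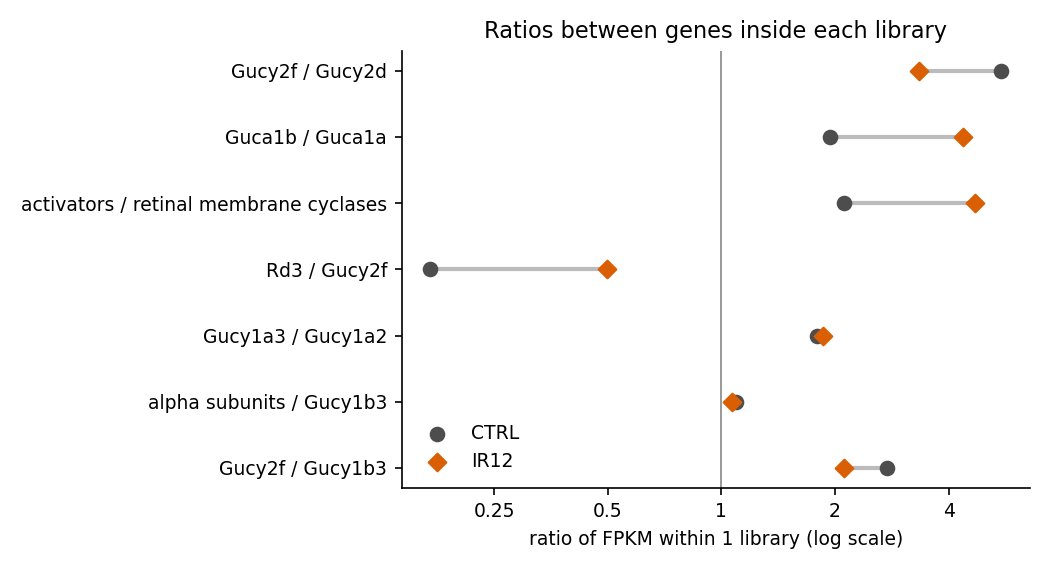
Ratios of FPKM between genes inside each library on a log axis, with CTRL as grey circles and IR12 as orange diamonds; a common scaling of a library cancels. *Guca1b* over *Guca1a* went from 1.94 to 4.36 and *Gucy2f* over *Gucy2d* from 5.52 to 3.35, while the alpha subunits over *Gucy1b3* were at 1.09 and 1.07.

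Rod markers give a measure of how other photoreceptor transcripts behaved in the same libraries. Of 5 rod markers, 2 were higher and 3 lower in IR12 as deposited, with a median log2 ratio of -0.03, and all 5 were higher on the TPM scale, with a median of 0.61. Of all genes tested, 48.2% were lower as deposited and 84.3% higher on the TPM scale. Their summed FPKM was 7317 in CTRL and 9712 in IR12, with *Gnat1* as the most abundant of the 5 in CTRL, *Sag* in IR12 and none at 0. *Gnat1*, the rod transducin alpha subunit, was at 4027 FPKM in CTRL and 4237 in IR12. Relative to *Gnat1*, *Gucy2f* was at 0.066 in CTRL and 0.0342 in IR12, which is 0.518 times the CTRL value. On the same basis *Gucy2d* was at 0.854 times its CTRL value and *Guca1a* at 0.697 times. *Guca1b* was at 1.56 times and *Rd3* at 1.52 times. The direction of each of these genes other than *Gucy2f* turns with the rod gene chosen. *Sag*, rod arrestin, had the highest log2 ratio of the 5 rod markers, at 2482 FPKM in CTRL and 4703 in IR12. Relative to *Sag*, *Guca1b* was at 0.868 times its CTRL value and *Rd3* at 0.846 times, and *Gucy2f* was at 0.288 times. *Gucy2d* was at 0.474 times and *Guca1a* at 0.387 times on that basis. The deposited FPKM of *Nrl* was at 0.727 times its CTRL value and that of *Nr2e3* at 0.859 times. *Gucy2d*, at 0.899 times, was thus higher relative to either. *Guca1a*, at 0.733 times, was slightly higher relative to *Nrl*. All 5 cone markers were lower in IR12 as deposited and 3 of 5 on the TPM scale, with a summed FPKM of 454 in CTRL and 299 in IR12, *Gnat2* as the most abundant and none at 0. The part of rod and cone content in the values of the cyclases was not tested.

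The soluble cyclase subunits had similar log2 ratios on the deposited and TPM scales, and the promoters of all 3 are shown for that reason. *Gucy1a3* and *Gucy1b3* are listed by RefSeq as Gucy1a1 and Gucy1b1, and their promoters lie at chr2:169779624-169779873 and chr2:169696988-169697237 on GRCr8, both on the minus strand. That of *Gucy1a2* lies at chr8:8784962-8785211 on the plus strand. Capitals mark CCAAT or its other-strand form ATTGG, the core of the box bound by NF-Y.
Gucy1a3: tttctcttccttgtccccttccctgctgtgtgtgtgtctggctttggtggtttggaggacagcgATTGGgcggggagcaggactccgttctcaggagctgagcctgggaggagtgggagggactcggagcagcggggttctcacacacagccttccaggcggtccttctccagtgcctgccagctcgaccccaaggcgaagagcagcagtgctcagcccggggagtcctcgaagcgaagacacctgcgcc
Gucy1b3: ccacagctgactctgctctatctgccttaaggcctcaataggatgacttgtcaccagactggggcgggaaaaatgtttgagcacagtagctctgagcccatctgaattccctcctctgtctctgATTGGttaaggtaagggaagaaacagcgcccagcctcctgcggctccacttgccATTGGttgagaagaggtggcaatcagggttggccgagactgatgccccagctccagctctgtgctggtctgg
Gucy1a2: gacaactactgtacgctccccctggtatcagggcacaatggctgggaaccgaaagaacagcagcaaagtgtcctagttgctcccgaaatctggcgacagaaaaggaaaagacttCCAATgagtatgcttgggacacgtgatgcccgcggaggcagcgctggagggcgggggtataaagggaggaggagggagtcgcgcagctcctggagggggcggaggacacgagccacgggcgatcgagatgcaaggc
CCAAT, which occurred in 34% of all promoters, was matched 2 times in *Gucy1b3*, 1 time in *Gucy1a3* and 1 time in *Gucy1a2*. The GC box GGGCGG, or CCGCCC on the other strand, was matched 2 times in *Gucy1a2* and 1 time each in *Gucy1a3*, where the matched letters overlap the CCAAT match, and *Gucy1b3*. It occurred in 30.5% of all promoters, and neither motif was limited to the soluble subunits. *Gucy2d* held 2 matches to the GC box, and *Npr1* held 1 to the GC box and 1 to CCAAT. Of the 10 members, 8 were matched in the RefSeq promoter table.

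*Gucy1b3* encodes the beta subunit that carries the heme to which nitric oxide binds, and lies at chr2:180976939-181026024 on rn6. Its FPKM was 96.4 in CTRL and 68.5 in IR12. *Gucy1a3*, the alpha subunit gene 19.7 kb away at chr2:181045703-181102918, had 67.6 in CTRL and 47.5 in IR12. *Gucy1a2*, the other alpha subunit gene at chr8:408421-899807, had 37.6 in CTRL and 25.6 in IR12. As deposited all 3 were lower in IR12, at log2 ratios of -0.49, -0.50 and -0.54 in that order, and slightly higher on the TPM scale at 0.15, 0.14 and 0.0867. Of all genes tested, between 15.2% and 17.2% had lower log2 ratios than these genes as deposited, and between 18.8% and 21.5% on the TPM scale. Proportions inside the libraries barely differed. *Gucy1a3* was at 1.80 times *Gucy1a2* in CTRL and 1.86 times in IR12. Both alpha subunits together were at 1.09 times *Gucy1b3* in CTRL and 1.07 times in IR12. The study examined a circRNA from *Gucy1a2* as well.

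The genes nearest to *Gucy1b3* in level were *St3gal1*, *Ubl3*, *Cdc42bpa*, *Cbx5* and *Ppp3cc*, at distances of 0.0085 to 0.089. *St3gal1*, a sialyltransferase gene, was at 96.2 FPKM in CTRL and 68.1 in IR12.

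The natriuretic-peptide cyclases were low. *Npr2*, the receptor for C-type natriuretic peptide at chr5:59128315-59147255, was at 7.14 FPKM in CTRL and 5.38 in IR12. Its log2 ratio was -0.35 as deposited and 0.20 on the TPM scale. *Npr1*, the receptor for atrial and B-type peptides at chr2:189840403-189856090, had 0.856 in CTRL and 0.875 in IR12, too low for a direction to be read. *Npr3*, the clearance receptor that binds the same peptides and lacks a cyclase domain, had 4.05 in CTRL and 1.49 in IR12. The log2 ratio of *Npr3* was -1.02 as deposited and -0.55 on the TPM scale. *Npr2* was at 1.76 times *Npr3* in CTRL and 3.62 times in IR12. *Gucy2c* (chr4:170659998-170740274) was listed at 0 in CTRL and at 0.0959 in IR12. Such a 0 cannot be read as absence, because the 37 mitochondrial genes of the table are listed at 0 in both libraries too.

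The 4 genes of the retinal set, *Gucy2f*, *Gucy2d*, *Guca1a* and *Guca1b*, had a median log2 ratio of -0.30 as deposited, and the 5 soluble and natriuretic-peptide cyclases a median of -0.49, while on the TPM scale the medians were 0.34 and 0.15. The difference, retinal minus the others, was 0.19 on both scales, because a common scaling factor cancels in it apart from the pseudocount. It was 0.0536 when each gene was set against genes of similar locus length. It describes unlike sets. Without the activators, the retinal membrane cyclases had a median of -0.51 as deposited and 0.13 on the TPM scale. Each was slightly below the median of the soluble and natriuretic-peptide cyclases on that scale. The retinal genes ranged from -0.87 for *Gucy2f* to 0.72 for *Guca1b*, and the 4 soluble and natriuretic-peptide genes that passed the minimum from -0.54 to -0.35. The range of the latter lies inside that of the former. Without *Gucy2d*, the retinal median was -0.44 and the difference 0.0421. *Gucy2f* alone was at 2.76 times *Gucy1b3* in CTRL and 2.11 times in IR12, opposite in direction to the difference of the medians.

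**Figure D3:**
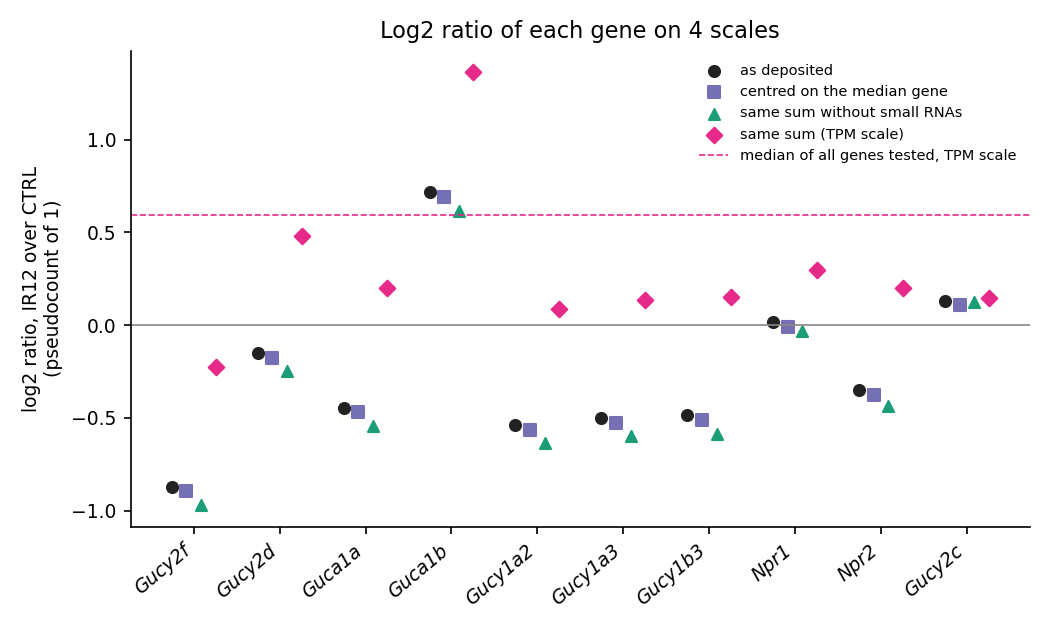
Log2 ratio of FPKM + 1, IR12 over CTRL, for each gene as deposited, centred on the median gene, with the same sum over genes other than small RNAs, and with the same sum over all genes (TPM scale). On the TPM scale *Gucy2d*, *Guca1a*, the soluble subunits and *Npr2* move from below to above 0, yet lie below the median of all genes tested, 0.59 (dashed line).

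**Figure D4:**
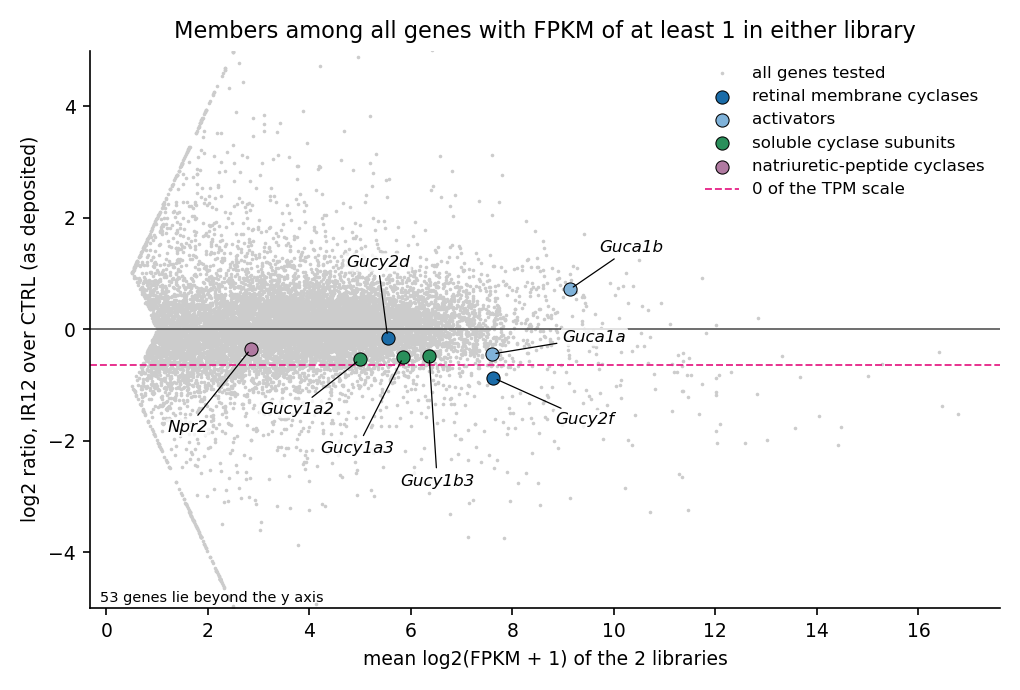
Log2 ratio as deposited against mean log2(FPKM + 1) for the 13599 genes tested (grey points), with the 8 members that reached this level marked by role. *Guca1b* lies above 0 and the other 7 below, and 1 of them, *Gucy2f*, also lies below the dashed line at which the TPM scale has its 0.

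Gene length moved with the log2 ratio in these libraries. Among the genes tested other than small RNAs, the median log2 ratio as deposited was 0.15 in the first of 4 equal bins by locus length (up to 9.21 kb) and -0.16 in the last (from 63.8 kb). *Gucy2f*, at 102 kb, and *Gucy1a2*, at 491 kb, belong to the bin of the longest loci, and *Guca1b*, at 7.93 kb, to that of the shortest. *Gucy2d*, *Guca1a*, *Npr1* and *Npr2* fall in the second bin, with a median of 0.14, and *Gucy1a3* and *Gucy1b3* in the third, with 0.05. Set against the median of its own bin, *Gucy2f* was at -0.71 and *Guca1b* at 0.57, both closer to 0 than before. *Gucy2d*, *Guca1a* and *Npr2* lay further from 0, at -0.29, -0.58 and -0.49. Among the soluble subunits *Gucy1a2* was at -0.38, apart from *Gucy1a3* at -0.55 and *Gucy1b3* at -0.54. The part of locus length in these values was not tested.

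The pathway around the cyclases was followed with a list of 42 other genes for cGMP synthesis, breakdown and targets, of which 38 were in the table and 28 reached an FPKM of 1 in either library. Of these 28, 12 were higher and 16 lower in IR12 as deposited, and 22 higher and 6 lower on the TPM scale. The median of their log2 ratios was -0.12 as deposited and 0.45 on the TPM scale, against 0.02 and 0.59 over all genes tested. At the 2-fold level, *Impdh2* was higher, and *Pde2a* and *Npr3* were lower as deposited, whereas on the TPM scale *Impdh2* and *Rd3* were higher and none of the 28 was lower. These are 1 higher and 2 lower of 28 as deposited, against 6.56% and 6.12% of all genes tested, and 2 higher and 0 lower on the TPM scale, against 20.7% and 3.21%.

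All 4 genes of GTP supply were higher in IR12 on both scales, while 51.8% of all genes tested were higher as deposited and 84.3% on the TPM scale. *Impdh2*, which encodes an isoform of the rate-limiting enzyme of guanine nucleotide synthesis, was at 31.6 FPKM in CTRL and 84.4 in IR12. Its log2 ratio was 1.39 as deposited and 2.02 on the TPM scale. *Impdh1*, the isoform known for its role in photoreceptors, had 103 in CTRL and 111 in IR12. *Gmps*, the enzyme that makes GMP, had 111 in CTRL and 141 in IR12, and *Guk1*, guanylate kinase, had 117 and 143.

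Nitric oxide synthases and peptide ligands were scarce. *Nos1*, the neuronal synthase, was at 0.967 FPKM in CTRL and 0.363 in IR12, and *Nos3*, the endothelial one, had 0.526 and 0.946, all below 1. Among the 7 genes of peptide ligands and their processing, *Furin*, a proprotein convertase, and *Nppa*, the gene of atrial natriuretic peptide, passed the minimum. *Furin* had 5.10 in CTRL and 6.79 in IR12. *Nppa* had 0.379 in CTRL and 1.11 in IR12, and passed through the library in which it was high. *Nos2*, *Guca1c*, *Pde11a* and *Prkg1* were not analysed here.

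Of the 14 phosphodiesterase genes, 11 were lower in IR12 as deposited and 4 on the TPM scale, against 48.2% and 15.7% of all genes tested. *Pde6a*, a catalytic subunit of the rod enzyme, was at 595 FPKM in CTRL and 754 in IR12. *Pde6b*, its catalytic partner, had 891 in CTRL and 718 in IR12. Thus *Pde6a* and *Pde6b* moved in opposite directions as deposited (0.34 and -0.31), although both were higher on the TPM scale (0.99 and 0.34). *Pde6h*, the inhibitory subunit of the cone enzyme, had 41.4 in CTRL and 24.6 in IR12, and its log2 ratio was -0.72 as deposited and -0.10 on the TPM scale. Among the phosphodiesterases other than the rod and cone enzymes, *Pde2a*, *Pde5a* and *Pde10a*, which hydrolyze cGMP, were lower in IR12 on both scales. *Pde2a* had 6.70 in CTRL and 2.68 in IR12. *Pde5a*, the cGMP-specific form, had 5.91 and 3.03. The log2 ratio of *Pde10a* was -0.78 as deposited and -0.21 on the TPM scale.

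Among the cGMP targets, the rod channel subunit *Cnga1* was at 675 FPKM in CTRL and 677 in IR12. Its partner *Cngb1* had 117 in CTRL and 93.9 in IR12. The cone channel subunit *Cngb3* had 10.9 in CTRL and 5.09 in IR12, lower on both scales with log2 ratios of -0.97 and -0.39. The 5 rod subunits of phosphodiesterase and channel had a median log2 ratio of 0.00 as deposited and the 4 cone subunits one of -0.43, and on the TPM scale the medians were 0.65 and 0.11.

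**Figure D5:**
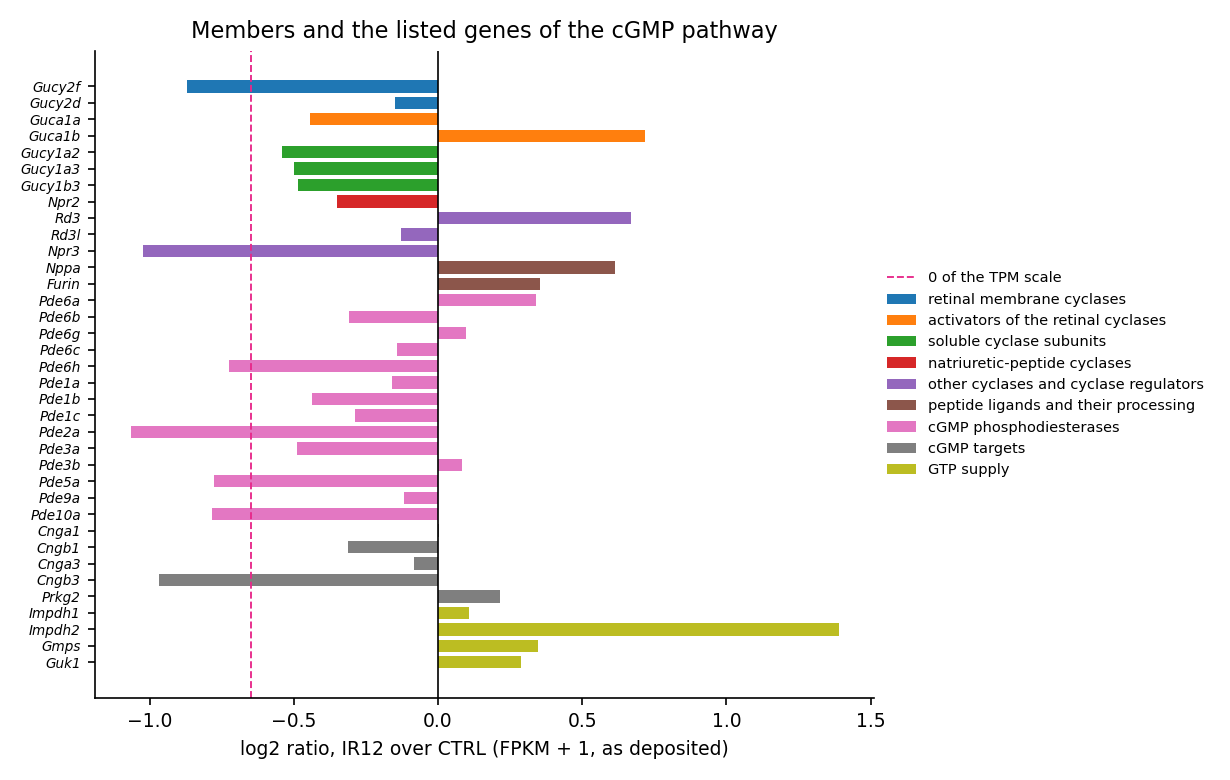
Log2 ratio of FPKM + 1 as deposited, IR12 over CTRL, for the 8 members and 28 pathway genes that reached an FPKM of 1, coloured by list; the dashed line marks where 0 lies on the TPM scale before the pseudocount. As deposited 12 of the 28 pathway genes were higher in IR12, and 22 on the TPM scale, with *Impdh2* at 1.39 as deposited.

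Markers of other retinal cells were read in the same libraries, since the soluble and natriuretic-peptide cyclases are not confined to photoreceptors. Their counts can be read against the 48.2% of all genes tested that were lower as deposited and the 15.7% on the TPM scale. All 5 amacrine markers were lower in IR12 as deposited (median -0.79) and 3 of 5 on the TPM scale, with summed FPKM of 368 and 242, *Pax6* as the most abundant and none at 0. Among them *Tfap2a*, at 1.65 in CTRL and 0.478 in IR12, passed the minimum through CTRL alone and had to be lower as deposited. Of 5 bipolar markers 4 were lower as deposited and 1 on the TPM scale, with summed FPKM of 433 and 347, *Trpm1* as the most abundant and none at 0. Both horizontal cell markers that passed the minimum were lower on both scales, with summed FPKM over 3 markers of 76.9 and 45.0, mostly from *Calb1*. On the TPM scale the median of these horizontal markers was -0.07, within the tolerance of 0.1, and *Onecut1* was low, at 1.85 FPKM in CTRL and 1.16 in IR12. Of 6 ganglion cell markers 5 passed, and 3 of these were lower as deposited and 1 on the TPM scale, with summed FPKM of 273 and 224, *Nefl* as the most abundant and none at 0. All 5 Müller glia markers were lower on both scales, with summed FPKM of 1043 and 201, mostly from *Glul*, and none at 0. *Kcnj10*, at 7.07 in CTRL and 0.467 in IR12, passed the minimum through CTRL alone, so that it had to be lower as deposited. The median log2 ratio of the Müller markers was -2.46, which is the value of *Kcnj10*. The other Müller markers ranged from -3.25 to -1.27, far below the soluble subunits. All 6 pericyte and smooth muscle markers were lower as deposited and 3 on the TPM scale, with summed FPKM of 53.8 and 27.4, *Rgs5* as the most abundant and none at 0. *Acta2*, at 2.56 in CTRL and 0.989 in IR12, likewise passed through CTRL alone and had to be lower as deposited.

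Of the endothelium markers, 2 were higher and 2 lower as deposited, and 3 were higher on the TPM scale, with summed FPKM of 9.17 and 9.12, *Tek* as the most abundant and none at 0. *Cdh5*, at 0.883 in CTRL and 1.63 in IR12, passed the minimum through IR12 alone, so that it had to be higher there. All 6 leukocyte markers were higher on both scales, with summed FPKM of 11.5 and 123, *Lyz2* as the most abundant, and *S100a8* listed at 0 in CTRL. Other than *Lyz2*, these markers passed the minimum through IR12 alone, so that they had to be higher there, and their count is no support for a direction. The astrocyte marker *Gfap* had 2.95 in CTRL and 21.9 in IR12, while *Pax2* was listed at 0 in CTRL. The 4 lens markers that passed the minimum were lower on both scales, with summed FPKM over 5 markers of 1339 and 156, mostly from *Cryaa*. Of 3 pigment epithelium markers that passed, 1 was higher and 2 lower as deposited, and 2 were higher on the TPM scale. Their summed FPKM over 4 markers was 75.2 and 94.2, mostly from *Ttr*, which had 61.8 in CTRL and 87.4 in IR12, while *Rpe65*, the retinoid isomerase, had 11.1 and 4.88. Both blood markers that passed were higher on both scales, with summed FPKM over 4 markers of 28.4 and 52.6, mostly from *Hbb*, and none at 0. The 2 blood markers under the minimum were lower, *Hba-a1* at 0.859 FPKM in CTRL and 0.168 in IR12 and *Alas2* at 0.334 and 0.196, and both were also lower on the TPM scale. The part of these cell types in the values of the cyclases was not tested.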

How the data were processed

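Retina RNA-seq of 2 libraries, CTRL and IR12, was analysed from the gene-level FPKM that the authors deposited for 32662 genes. The submitters' processing notes name STAR 2.5.2b, Cuffdiff 2.2.0 and the rn6 build, with no role or order. The kit is given as one for stranded total RNA in the labels and as one for stranded mRNA in the design text, each with rRNA depletion. Whether counting used strand is not given in the sources used here. Libraries were grouped by their titles. Listed starts count from 0, since the end minus the start equalled the hairpin length for 190 of 211 microRNA genes, and were raised by 1.

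Log2 ratios used a pseudocount of 1, and counts of genes a minimum FPKM of 1 in either library. With 1 library per condition no test was run and no p-value was computed. Members and gene lists were chosen with earlier results of these data known. The genes named are the members, the genes of the pathway and marker lists, and the 5 nearest to *Gucy2f* and to *Gucy1b3* by Euclidean distance in log2(FPKM + 1). Alternatives were a pseudocount of 0.1, the TPM scale (both sums set to 1000000), the same sum over genes other than small non-coding RNAs (recognised by symbol), centring on the median gene, a minimum FPKM of 5 or none, and the retinal set without *Gucy2d*. A log2 value was read as moved beyond 0.1, a tolerance set by hand, and a count beyond 1.5 times. A further 3 alternatives were added after seeing the data: values relative to the rod markers, values relative to genes of similar locus length, and the medians without *Npr1*. The ratios inside libraries and the 4 bins of locus length were also chosen after seeing the data. The study states the reads sequenced per library, but FPKM holds no read counts, so the reads behind single values are not known. At 25 locus lengths under 1500 bases the lowest repeated FPKM could be compared, and at 17 of them that of CTRL was 1.71 times that of IR12. This is a ratio of FPKM steps and depends on how FPKM was scaled, so it is not a ratio of sequenced reads. A further rod marker is not reported here and was left out of the rod list. Promoters came from the RefSeq table for GRCr8, with 8 members matched by current symbol in the gene table and 2 by older symbol. The procedure was tested on simulated FPKM with known fold changes in well expressed genes only. Changes of low genes and unequal FPKM sums were not simulated. Python 3.11.15, numpy 2.4.6, pandas 2.3.3 and matplotlib 3.10.9 were used.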

Additional observations from a re-analysis of the deposited data

How the results depend on the processing

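With 1 library per condition, none of these values has a replicate check, and no library could be left out. No paired analysis was possible because each condition has 1 library and no test was run. Of 100 alternative values over 16 results, 73 differed from the reported value by less than the tolerance, 18 moved further without a change of sign and 9 moved further and changed sign. Among the 73, the value of *Npr1*, close to 0, also changed sign in 2 cases (-0.03 without small RNAs and -0.01 when centred), and 4 could not change by construction: the difference of the medians under centring and the rod marker reference, which subtract 1 constant, and the 2 gene counts without a minimum, since under a pseudocount of 1 no gene below the minimum reaches 2-fold. On the TPM scale the retinal median was 0.34 and that of the soluble and natriuretic-peptide cyclases 0.15, and the sign also changed for *Gucy2d* (0.48), *Guca1a* (0.20), *Gucy1a2* (0.0867), *Gucy1a3* (0.14), *Gucy1b3* (0.15) and *Npr2* (0.20). That scale left 1 member lower in IR12 and gave 2817 genes at least 2-fold higher and 436 lower. The shift follows from the unequal FPKM sums. A common factor cancels in the difference of the medians. On the TPM scale and without small RNAs this difference could therefore change only through the pseudocount. Without *Gucy2d* the retinal median was -0.44 and the difference of the medians 0.0421. Relative to genes of similar locus length, an alternative added after seeing the data, these were -0.44 and 0.0536, and *Npr1* was at -0.12. The pseudocount of 0.1, centring, the sum without small RNAs and the rod marker reference moved no set median and no count beyond the tolerance. FPKM without read counts gives no precision for low genes such as *Npr1* and *Gucy2c*.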
